A study of Mus musculus with 9 samples.

Results

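The transcription factors of the dorsal midbrain and of its tectal neurons described here were Pax3, Pax7, Pou4f1, Pou4f2, Pou4f3, Lhx9, Lhx1, Lhx5, Barhl2 and Tfap2b, 10 genes in all. They were taken by symbol from a table of 27360 rows. Each symbol had 1 row, and all 10 were among the 14029 genes tested. RNA sequencing of poly-A selected RNA was performed on midbrain tissue of C57BL/6 mouse fetuses at E13.5, in 9 libraries, to ask how gene expression in the midbrain differs once Gpr161 is deleted in the Wnt1-Cre lineage. Gpr161 is a receptor of the primary cilium that restrains sonic hedgehog (Shh) signaling. The floxed control (Gpr161f/f, 3 libraries) carries floxed alleles without Cre. The Cre control (Gpr161f/+;Wnt1-Cre, 3 libraries) carries the Wnt1-Cre transgene and 1 floxed allele. The cKO (3 libraries, whose titles spell the allele Gpt161f/f;Wnt1-Cre) carries the transgene and both floxed alleles. Cre is driven by Wnt1 regulatory sequence, which is active in the dorsal midbrain neuroectoderm and in the precursors of neural crest cells. The cKO shares its floxed alleles with the floxed control and differs from it in the transgene, and so in whether those alleles can recombine. From the Cre control it differs in 1 allele only.

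The dorsal (alar) part of the midbrain forms the tectum, which becomes the superior and inferior colliculi. Paired-box factors such as Pax3 and Pax7 mark the dorsal progenitors, and factors of the POU, LIM-homeodomain, Barh and AP-2 families are switched on as these progenitors leave the cell cycle and take up separate neuronal fates. Shh signaling from the ventral midline promotes ventral identities and opposes Pax3 and Pax7 in the neural tube.

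The deposited values were read as log2 expression values, on a common scale across libraries and shrunk where expression is low. This reading is from the values themselves, since the transformation is not given in the sources used here. Their sum on the linear scale was between 26609900 and 27496600 per library. Read counts are not part of this table, so the depth of each library is unknown and no interval from counting could be given. A value of 1 cpm lay at a log2 value of 4.73 to 4.78, and each of the 10 factors was above it in 9 of 9 libraries. Here and below, cpm is the deposited value on the linear scale, scaled to a common library sum, and not a read count. Whether the values are scaled to gene length is not given either, so levels were compared between genotypes and not between genes. Whether each library came from 1 fetus is not stated, so the p-values measure the spread between these libraries. A gene is said to have risen or fallen where the Benjamini-Hochberg adjusted p from limma, over all genes tested, was under 0.05, and a DEG also changed more than 1.5-fold, which is 0.58 on the log2 scale. Errors are SD with n = 3.

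Gpr161 itself did not separate the genotypes. Its log2 values were 11.80, 11.74 and 11.78 in the floxed control, 11.77, 11.91 and 11.96 in the Cre control and 11.74, 11.95 and 11.94 in the libraries labelled cKO. The difference was 0.11 from the floxed control (adjusted p = 0.223) and 0.00033 from the Cre control (adjusted p = 0.998). The label is therefore not checked by this gene. Since the value covers the whole gene, a transcript that lost only its floxed part would still be counted, and every direction below is that of the libraries labelled cKO. Among 10 genes of the ventral midbrain and the Shh response, 7 rose and 0 fell against each control, with a median log2 fold change of 0.69 and 0.63, respectively. Gli1, a transcription factor induced by Shh, was higher by 1.08 (adjusted p = 3.17e-05) and 1.05 (adjusted p = 7.49e-05), respectively. The first principal component held 57.9% of the variance and placed the Cre control libraries between the floxed control and the cKO-labelled libraries.

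Of the 10 dorsal factors, 7 fell in the cKO-labelled libraries against the floxed control, and 5 of these fell against the Cre control as well. Over all genes tested, 18.8% fell and 19.5% rose against the floxed control, whereas 4.85% fell and 4.86% rose against the Cre control. None of the 10 rose in either comparison. The 10 had a median log2 fold change of -0.50 in the former comparison and -0.39 in the latter, beside 0.011 and 0.012 over all genes tested. By the stricter limit, 4 of the 10 were lower DEGs against the floxed control (Pou4f1, Pou4f2, Lhx9 and Tfap2b) and 3 against the Cre control (Pou4f1, Pou4f2 and Lhx9), where 1.58% and 0.228% of all genes were lower by the same limit. For 7 of the 10, every cKO-labelled library lay below all 6 control libraries, a separation seen in 11.5% of all genes tested. The other 3, Lhx1, Lhx5 and Barhl2, passed the test in neither comparison. These are bulk tissue values, so fewer cells of a type and less RNA per cell cannot be told apart. The plot of each factor by library shows the same division.

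**Figure D1:**
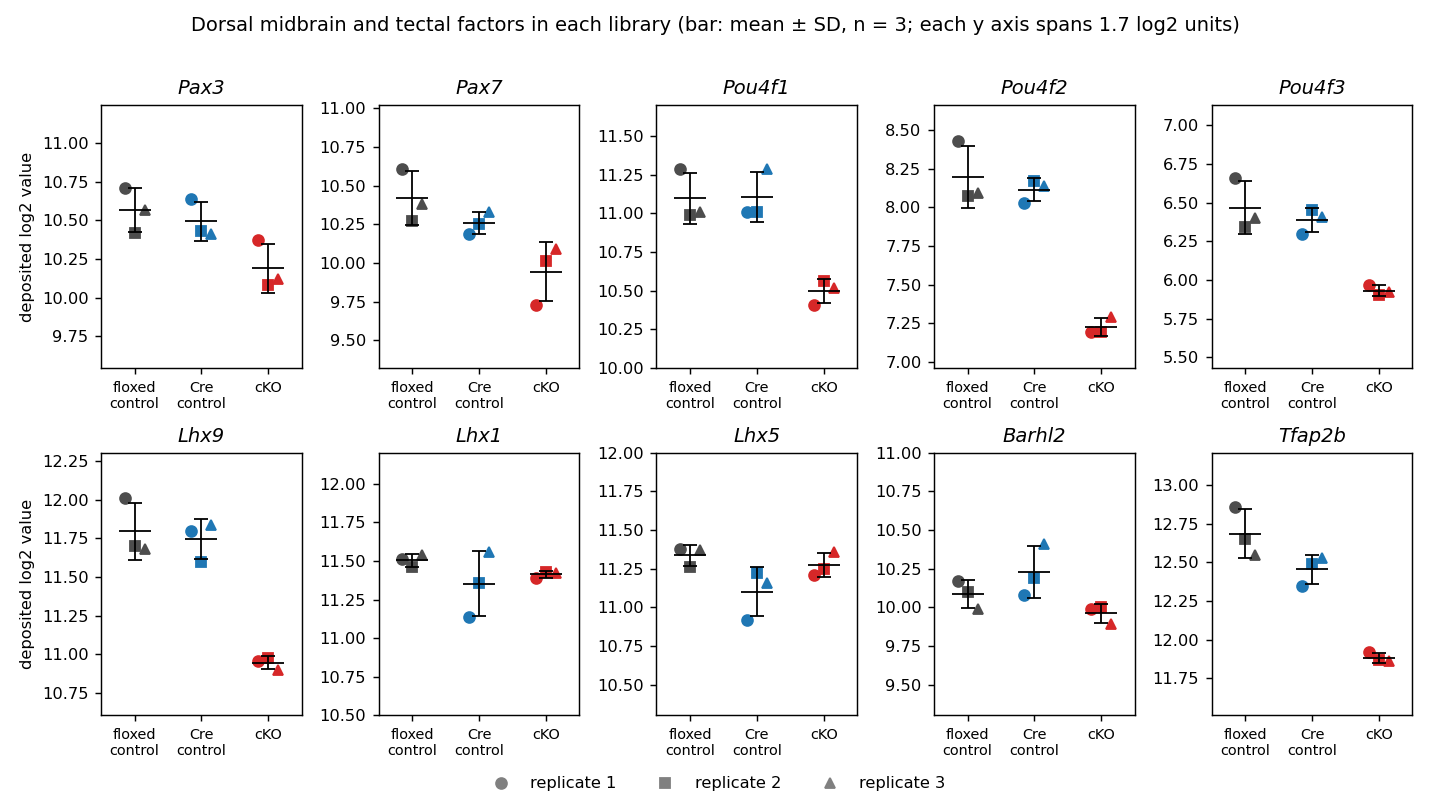
Deposited log2 value (y axis, 1 panel per gene, each spanning the same range of log2 units) in the 9 libraries by genotype, with points for libraries and bars for the mean ± SD (n = 3). The 3 cKO-labelled libraries lie below all 6 controls for 7 genes, with gaps from 0.04 for Pax3 to 0.74 for Pou4f2, and overlap the controls for Lhx1, Lhx5 and Barhl2.

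Pax3 and Pax7 are paralogs that mark alar progenitors, and Pax7 is retained in part of the tectal neurons. Pax3 (chr1:78101267-78197134, minus strand, GRCm38) had log2 values of 10.71, 10.42 and 10.57 in the floxed control, 10.64, 10.43 and 10.41 in the Cre control and 10.37, 10.08 and 10.12 in the cKO-labelled libraries. The groups did not overlap, but the highest cKO-labelled value was only 0.04 below the lowest control. The mean was 10.19 ± 0.159 in the cKO against 10.57 ± 0.144 in the floxed control, a fall of 1.30-fold (log2 fold change -0.37, SE 0.0965, adjusted p = 0.0128). This call was lost without the first floxed control library (adjusted p = 0.0517) or without the second cKO-labelled library (adjusted p = 0.0503). Against the Cre control, the difference of -0.30 did not pass the test (95% interval -0.52 to -0.09, adjusted p = 0.0740).

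Pax7 (chr4:139737062-139833528, minus strand) stood at 10.61, 10.27 and 10.38 in the floxed control, at 10.19, 10.25 and 10.33 in the Cre control and at 9.73, 10.01 and 10.09 in the cKO-labelled libraries. The first cKO-labelled library was the lowest of the 9, and the gap between the highest cKO-labelled value and the lowest control was 0.11. Pax7 fell 1.39-fold against the floxed control (log2 fold change -0.48, SE 0.103, adjusted p = 0.00595). The difference of -0.32 from the Cre control had an interval of -0.55 to -0.09 and did not pass the test (adjusted p = 0.0783).

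Pou4f1, Pou4f2 and Pou4f3 (also called Brn3a, Brn3b and Brn3c) are POU-homeodomain factors of differentiating neurons. Pou4f1 is found in tectal, habenular and sensory ganglion neurons, Pou4f2 is best known from retinal ganglion cells and is also expressed in the tectum, and Pou4f3 is required in hair cells of the inner ear. Pou4f1 (chr14:104461676-104467999, minus strand) had log2 values of 11.29, 10.99 and 11.01 in the floxed control, 11.01, 11.01 and 11.29 in the Cre control and 10.41, 10.56 and 10.52 in the cKO-labelled libraries. All 3 cKO-labelled libraries were lower than every control, by at least 0.43. Its fall was 1.52-fold against each control, with a log2 fold change of -0.60 from the floxed control (SE 0.0951, adjusted p = 0.00148) and -0.61 from the Cre control (SE 0.0951, adjusted p = 0.00896).

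Pou4f2 (chr8:78433010-78436645, minus strand) showed the largest log2 change of the 10 in both comparisons with the cKO. Its values were 8.43, 8.07 and 8.09 in the floxed control, 8.03, 8.17 and 8.14 in the Cre control and 7.19, 7.19 and 7.29 in the cKO-labelled libraries. The gap of 0.74 between the groups was larger than the SD within any genotype, of which the largest was 0.200 in the floxed control. Pou4f2 fell 1.96-fold against the floxed control (log2 fold change -0.97, SE 0.0921, adjusted p = 0.000221) and 1.85-fold against the Cre control (-0.89, SE 0.0921, adjusted p = 0.00149). From the lowest log2 fold change upward, it ranked 1 of 14029 genes against the Cre control and 13 of 14029 against the floxed control.

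The Pou4f genes share stretches of coding sequence, which bears on how reads could be assigned among them. By GENCODE transcripts of GRCm38, 1.81% of the 31-base words of Pou4f1, 2.08% of those of Pou4f2 and 0.465% of those of Pou4f3 also occur in another gene. The share was between 0 and 2.53% for all 10 factors, with 0 for Pax7 and Lhx1. Pou4f1 and Pou4f2 have 2 identical runs of 50 bases or more, both inside the coding region, shown here because reads within them cannot be given to 1 gene. The longer spans transcript bases 1137 to 1207 of Pou4f1 and 1082 to 1152 of Pou4f2, and the shorter spans bases 1227 to 1276 and 1172 to 1221.
shared run of 71 bases: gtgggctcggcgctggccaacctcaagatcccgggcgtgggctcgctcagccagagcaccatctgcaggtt
shared run of 50 bases: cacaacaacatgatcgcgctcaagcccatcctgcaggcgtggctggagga
Both runs are short beside the Pou4f1 and Pou4f2 transcripts of 4445 and 3204 bases.

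The promoter windows of Pou4f1, Pou4f2 and Tfap2b are shown because these genes were among the factors that fell most. They are the 250 bases before the RefSeq start site on GRCm38.p6, in the direction of the gene, in lower case with the E-box CAGCTG in capitals where it occurs. The window of Pou4f1 is chr14:104468000-104468249 (minus strand), that of Pou4f2 chr8:78436648-78436897 (minus strand) and that of Tfap2b chr1:19211804-19212053 (plus strand). The Tfap2b window precedes a start that lies inside the gene as GENCODE draws it. The windows of Pax7 and Lhx9, counted below but not shown, also lie inside their genes. Lhx9 is left out although it fell more than Pou4f1 and Tfap2b against each control.
Pou4f1: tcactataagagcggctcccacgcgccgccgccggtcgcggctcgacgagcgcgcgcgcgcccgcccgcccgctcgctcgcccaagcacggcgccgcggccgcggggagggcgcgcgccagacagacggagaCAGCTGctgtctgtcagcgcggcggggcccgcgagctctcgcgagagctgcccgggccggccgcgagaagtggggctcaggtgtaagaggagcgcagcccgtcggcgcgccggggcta
Pou4f2: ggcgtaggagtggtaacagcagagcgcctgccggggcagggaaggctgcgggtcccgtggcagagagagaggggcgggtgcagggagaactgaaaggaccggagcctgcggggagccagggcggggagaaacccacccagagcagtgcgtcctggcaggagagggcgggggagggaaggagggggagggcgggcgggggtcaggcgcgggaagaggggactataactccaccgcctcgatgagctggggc
Tfap2b: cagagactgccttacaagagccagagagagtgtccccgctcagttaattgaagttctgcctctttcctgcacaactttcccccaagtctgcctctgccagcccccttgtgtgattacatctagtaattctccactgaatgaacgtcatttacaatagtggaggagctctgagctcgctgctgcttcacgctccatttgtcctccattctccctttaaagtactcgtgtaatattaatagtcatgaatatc
Windows of 7 of the 10 factors were at hand, without Pax3, Lhx5 and Pou4f3. Their GC content ranged from 46.4% in Tfap2b to 78% in Pou4f1, beside a median of 52.4% over all windows. On both strands of the 7 windows, the Gli core GGGTGGTC, the Tcf/Lef core CTTTGAA and the homeodomain core TAATTA were found in 0, while 0.704%, 4.46% and 4.85% of all 32817 windows held them. The E-box CAGCTG was found only in Pou4f1, 118 bases before the start, and in 13% of all windows. None of these motifs overlaps another in the windows shown, and a match is a string of letters and not a bound site.

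Pou4f3 (chr18:42394539-42397249, plus strand) lay closest to the filter of 1 cpm. Its log2 values were 6.66, 6.34 and 6.40 in the floxed control, 6.30, 6.45 and 6.41 in the Cre control and 5.97, 5.90 and 5.92 in the cKO-labelled libraries. The cKO-labelled values spread little (SD 0.0357) and lay at least 0.33 below the controls. Pou4f3 fell 1.45-fold against the floxed control (log2 fold change -0.53, SE 0.0812, adjusted p = 0.00131) and 1.37-fold against the Cre control (-0.45, SE 0.0812, adjusted p = 0.0138). The latter call was lost without the third Cre control library (adjusted p = 0.0538). If the deposited values were shrunk at low expression, as they appear to be, its fold change may be understated.

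Lhx9, Lhx1 and Lhx5 are LIM-homeodomain factors, and they divided by gene. Lhx9 is expressed in neurons of the dorsal midbrain, the thalamus and the spinal cord. Its log2 values (chr1:138825186-138848577, minus strand) were 12.01, 11.70 and 11.68 in the floxed control, 11.80, 11.60 and 11.84 in the Cre control and 10.96, 10.98 and 10.90 in the cKO-labelled libraries. The cKO-labelled libraries were tightly grouped (10.95 ± 0.0416), and the nearest control was 0.62 higher. Lhx9 fell 1.80-fold against the floxed control (log2 fold change -0.85, SE 0.0888, adjusted p = 0.000327) and 1.74-fold against the Cre control (-0.80, SE 0.0888, adjusted p = 0.00183). In the order from the lowest log2 fold change, it ranked 34 and 5 of 14029 genes, respectively.

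Lhx1 and Lhx5 are close relatives of each other that act in the differentiation of many interneuron classes, those of the midbrain included. Lhx1 (chr11:84518284-84525535, minus strand) had log2 values of 11.51, 11.46 and 11.54 in the floxed control, 11.14, 11.36 and 11.56 in the Cre control and 11.39, 11.43 and 11.42 in the cKO-labelled libraries. The cKO-labelled values lay within the range of the Cre control and just under that of the floxed control. The log2 fold change was -0.09 from the floxed control (95% interval -0.28 to 0.10, adjusted p = 0.428) and 0.06 from the Cre control (interval -0.13 to 0.25, adjusted p = 0.667). Lhx5 (chr5:120431699-120441223, plus strand) stood at 11.38, 11.26 and 11.37 in the floxed control, at 10.92, 11.22 and 11.16 in the Cre control and at 11.21, 11.25 and 11.36 in the cKO-labelled libraries. Every Cre control value lay below every floxed control value, and the cKO-labelled values overlapped both. The log2 fold change of Lhx5 was -0.06 from the floxed control (interval -0.23 to 0.10, adjusted p = 0.526) and 0.17 from the Cre control (interval 0.0048 to 0.34, adjusted p = 0.160). Both intervals of Lhx1 and of Lhx5 leave out a fall of the size seen for Lhx9. Lhx5 shares 69 exonic bases with the antisense gene Gm27199, which has no row in the table, and whether the counting used strand is not given in the sources used here.

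Barhl2 is a homeodomain factor of dorsal spinal interneurons and of diencephalic and retinal neurons. Its log2 values (chr5:106452523-106458166, minus strand) were 10.17, 10.10 and 9.99 in the floxed control, 10.08, 10.19 and 10.41 in the Cre control and 9.99, 10.0003 and 9.89 in the cKO-labelled libraries. The cKO-labelled values lay below every Cre control value and overlapped the floxed control. The log2 fold change was -0.13 from the floxed control (95% interval -0.31 to 0.05, adjusted p = 0.231). From the Cre control it was -0.27 (interval -0.45 to -0.09, adjusted p = 0.0649), which passed the test without the first Cre control library (adjusted p = 0.0134) or with quantile normalization (adjusted p = 0.0436). Without the third Cre control library it was -0.17 (adjusted p = 0.174).

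Tfap2b, an AP-2 factor of dorsal midbrain neurons and of neural crest derivatives, had groups that did not overlap in any comparison. Its log2 values (chr1:19208914-19238576, plus strand) were 12.86, 12.65 and 12.55 in the floxed control, 12.35, 12.49 and 12.53 in the Cre control and 11.92, 11.87 and 11.86 in the cKO-labelled libraries. Every Cre control library lay below every floxed control library, and every cKO-labelled library below both. Tfap2b fell 1.75-fold against the floxed control (log2 fold change -0.80, SE 0.0748, adjusted p = 0.000216) and 1.48-fold against the Cre control (-0.57, SE 0.0748, adjusted p = 0.00462), just short of the DEG limit. The Cre control differed from the floxed control by -0.23, which did not pass the test (interval -0.40 to -0.07, adjusted p = 0.191).

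The control genotypes were compared to see what 1 recombined allele and the transgene go with. None of the 10 factors passed limma's test with Benjamini-Hochberg adjustment, and 2 of them, Lhx5 and Tfap2b, had an unadjusted p under 0.05 (0.0104 for each), as did 17.5% of all genes. Of all genes tested, 0.00713% fell and 0.0499% rose in the Cre control. Lhx5 and Tfap2b were also the 2 factors for which every Cre control library lay below every floxed control library, which held for 12.1% of all genes. The median log2 fold change of the 10 was -0.08, beside -0.0010 over all genes. The intervals were widest for Pax7 (-0.39 to 0.07), so that a difference of the size seen in the cKO against the Cre control (-0.32) lies within it. Against the Cre control, 9 of the 10 factors had an unadjusted p under 0.05 in the cKO, as did 29.3% of all genes, with Lhx5 higher and the other 8 lower. Both cKO comparisons use the same cKO-labelled libraries, so their values stand side by side in the plot of fold changes and are not independent.

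**Figure D2:**
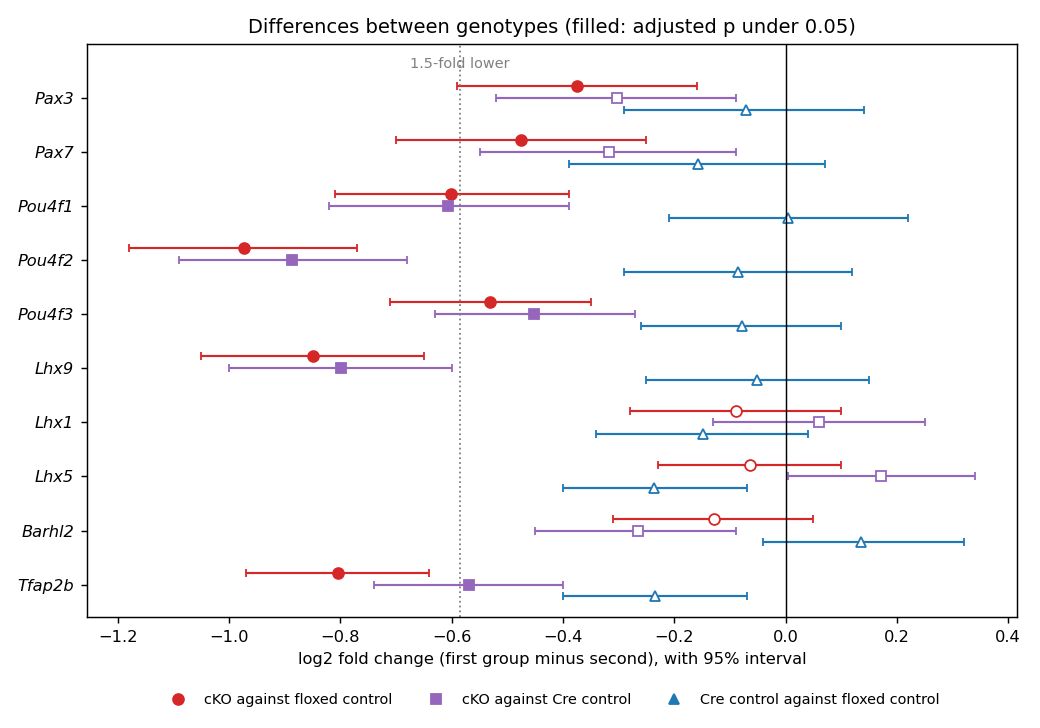
Log2 fold change (x axis) of each factor in the 3 comparisons, with 95% intervals from limma and filled symbols where the adjusted p was under 0.05. Pou4f2 at -0.97 and -0.89 and Lhx9 at -0.85 and -0.80 lie farthest to the left in the cKO-labelled libraries, and no symbol for Cre minus floxed control is filled.

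The first floxed control library gave the highest value of its genotype for 9 of the 10 factors, with Lhx1 the exception. Without it, 6 of the 10 fell against the floxed control, Pax3 being the one lost. Over all genes tested, 3965 fell or rose in that comparison without this library, beside 5380 with it. The within-genotype SD of the 10 factors, pooled over the groups, was between 0.108 and 0.154. For each of the 10, this was above the median SD of genes at a like level, at percentiles of 66.4 for Pou4f3 to 94.5 for Pax7.

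Paralogs were then compared within each library, since the difference of their log2 values is free of any factor common to the library. Over 3 pairs, the exact two-sided permutation test of 3 cKO-labelled against 6 control libraries has 84 assignments and a smallest p of 0.0238. Pou4f1 minus Pou4f2 was 2.86, 2.92 and 2.92 in the floxed control, 2.98, 2.84 and 3.15 in the Cre control and 3.22, 3.37 and 3.23 in the cKO-labelled libraries. The groups did not overlap, and the mean difference went from 2.94 ± 0.11 (n = 6) to 3.27 ± 0.085 (n = 3), a difference of 0.33 (exact permutation p = 0.0238, adjusted over the 3 pairs 0.0714). The drop in Pou4f2 was the larger by that amount, and the difference did not pass after adjustment. The unadjusted p was already the smallest that the 84 assignments allow. Beside the p-values of the other pairs, no separation of this pair, however large, could have passed. With either control genotype alone the exact permutation p was 0.10, the smallest that 3 against 3 libraries allow.

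Pax3 minus Pax7 was 0.65 in the first cKO-labelled library and 0.07 and 0.04 in the others, beside 0.08 to 0.45 in the controls. The difference of 0.06 between the groups did not pass (exact permutation p = 0.738), and without the first cKO-labelled library it was -0.14. Lhx1 minus Lhx5 was 0.05 to 0.18 in the cKO-labelled libraries and 0.13 to 0.40 in the controls, a difference of -0.07 (exact permutation p = 0.333). For these pairs, the groups overlapped.

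**Figure D3:**
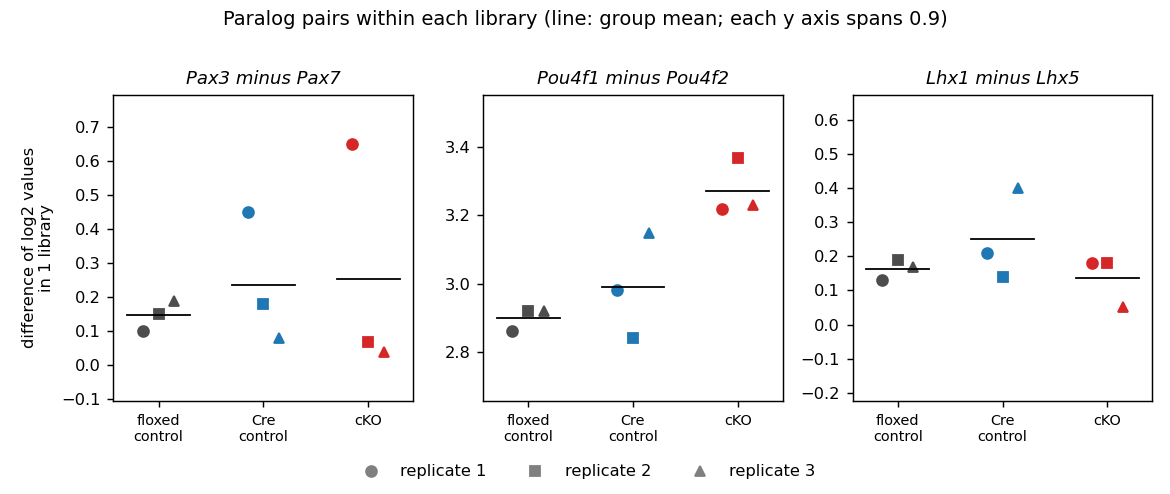
Difference of the log2 values of 2 paralogs in the same library (y axis) by genotype, with points for libraries and lines for group means. For Pou4f1 minus Pou4f2, the 3 cKO-labelled libraries (3.22 to 3.37) lie above all 6 controls (2.84 to 3.15), while the groups overlap for the other pairs.

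Genes related to the 10 factors were described by list. Of 13 other genes of tectal neurons, 8 fell and 0 rose against the floxed control, and 4 fell and 0 rose against the Cre control, with medians of -0.32 and -0.21. Tfap2d, another AP-2 factor of the tectum, had log2 fold changes of -0.71 (adjusted p = 0.000523) and -0.68 (adjusted p = 0.00304). Ebf3, a helix-loop-helix factor of migrating neurons, stood at -0.74 (adjusted p = 0.000395) and -0.48 (adjusted p = 0.0125). Slc17a6, the vesicular transporter of glutamatergic neurons, was at -0.68 (adjusted p = 0.000691) and -0.47 (adjusted p = 0.0155).

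Of 17 other LIM-homeodomain factors and LIM cofactors tested of 19 listed (Lhx3 and Lhx8 were below the filter), 8 fell in the comparison with the floxed control and 5 in that with the Cre control, and 0 rose in either. The medians were -0.18 and -0.10. Lhx2, a paralog of Lhx9, had log2 fold changes of -0.60 (adjusted p = 0.000727) and -0.67 (adjusted p = 0.0024), and Lmo3, a LIM-only protein, of -0.66 (adjusted p = 0.0008) and -0.49 (adjusted p = 0.0152). The 16 other Pax, Pou, Tfap2 and Barhl factors split: 6 fell and 2 rose against the floxed control, and 4 fell and 2 rose against the Cre control, with medians of -0.11 and -0.13. Barhl1, the paralog of Barhl2, fell by 0.52 (adjusted p = 0.00226) and 0.51 (adjusted p = 0.0137) on the log2 scale. The 2 that rose were Pax5 and Pax8, which mark the isthmic border of the midbrain and hindbrain. Pax5 was higher by 0.56 than in the floxed control (adjusted p = 0.00311), and Pax8 by 0.56 than in the Cre control (adjusted p = 0.0223). Pax2, which also marks this border and was picked here after its values were seen, went the other way: its log2 fold change was -0.63 from the floxed control (adjusted p = 0.0146) and -0.06 from the Cre control (adjusted p = 0.842).

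Lists of regional and dorsal genes were counted in the same way. Of 10 midbrain regional factors, 4 fell and 1 rose against the floxed control, and 1 fell and 1 rose against the Cre control (medians -0.06 and -0.10). Mab21l1, expressed in the tectum, had log2 fold changes of -0.80 (adjusted p = 0.000178) and -0.49 (adjusted p = 0.0065), whereas Otx1, a homeodomain factor of the fore- and midbrain, had 0.85 (adjusted p = 0.000178) and 0.66 (adjusted p = 0.00183). Among 5 Zic factors, which mark the dorsal neural tube, 3 fell against the floxed control, and Zic1 was the 1 that fell against the Cre control (medians -0.24 and -0.23). Of 10 roof plate and dorsal midline genes, 1 fell and 3 rose against the floxed control and 0 changed against the Cre control (medians 0.08 and 0.02). In the GABAergic lineage, 4 of 10 fell and 2 rose against the floxed control and 2 rose against the Cre control (medians -0.18 and 0.01). Helt, which selects the GABAergic fate in the midbrain, rose by 1.06 (adjusted p = 0.000196) and 0.90 (adjusted p = 0.00167).

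**Figure D4:**
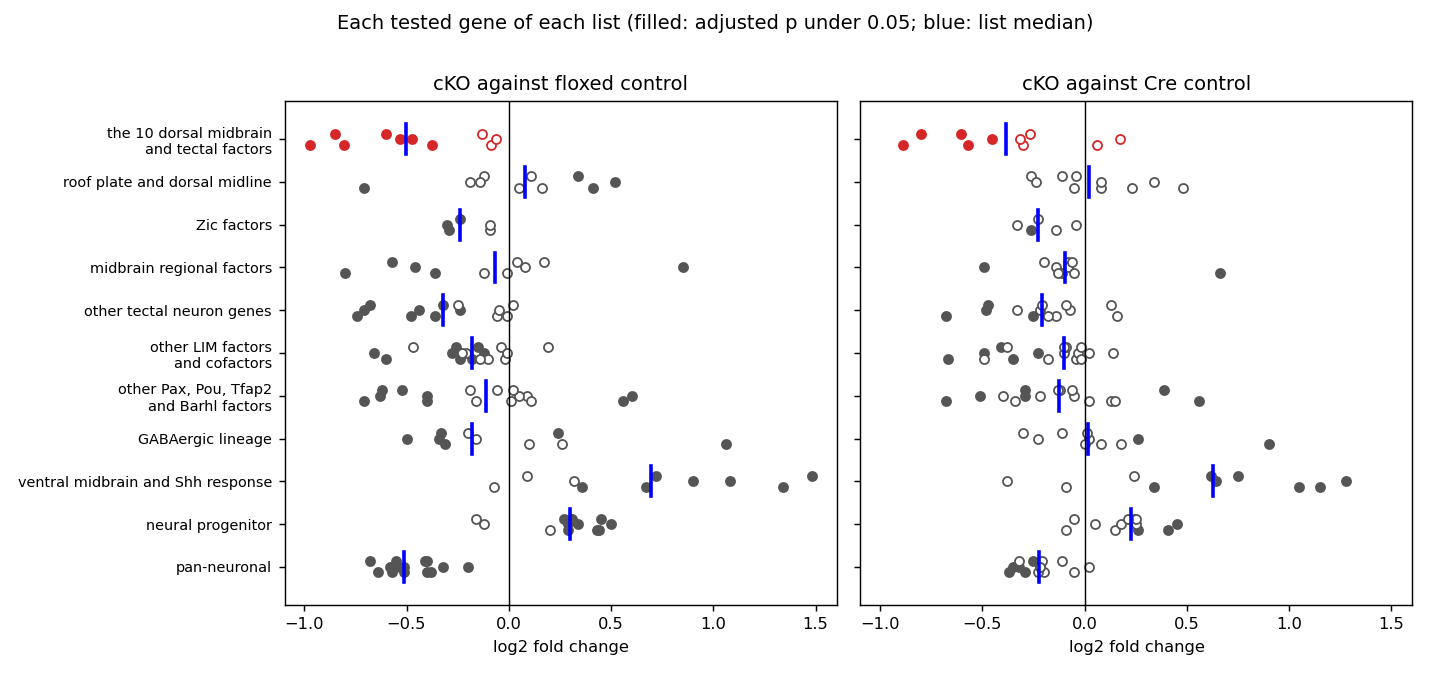
Log2 fold change (x axis) of every tested gene of each list in the cKO-labelled libraries against each control, filled where the adjusted p was under 0.05, with the list median as a blue line. The 10 dorsal factors (red) have medians of -0.50 and -0.39, pan-neuronal genes -0.51 and -0.23, and genes of the ventral midbrain and the Shh response 0.69 and 0.63.

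The pan-neuronal list, of genes that most neurons use, moved in the same comparisons. Of 14 pan-neuronal genes, 14 were lower than in the floxed control and 5 than in the Cre control (medians -0.51 and -0.23), whereas of 12 progenitor genes 9 and 4 rose and 0 fell (medians 0.30 and 0.23). The mean log2 value of the pan-neuronal genes was 13.05 to 13.19 in the floxed control, 12.69 to 12.95 in the Cre control and 12.51 to 12.70 in the cKO-labelled libraries. The Cre control and the cKO overlap narrowly in this mean. After the data were seen, the factors were therefore also expressed relative to it.

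Relative to the pan-neuronal mean, Pou4f2, Lhx9 and Tfap2b were lower in the cKO-labelled libraries against both controls. The change of scale moves the median of all genes to 0.49 from the floxed control and 0.24 from the Cre control. Pou4f2 was at -0.50 (adjusted p = 0.00111) and -0.66 (adjusted p = 0.00539), Lhx9 at -0.37 (adjusted p = 0.00799) and -0.58 (adjusted p = 0.00865), and Tfap2b at -0.33 (adjusted p = 0.00691) and -0.35 (adjusted p = 0.0230). On this scale, 0.727% and 0.627% of all genes were lower, respectively. Pou4f1 was at -0.12 against the floxed control, which did not pass (adjusted p = 0.251), and at -0.38 against the Cre control, which did (adjusted p = 0.0179). Pax3, Pax7 and Pou4f3 passed in neither comparison, with values between -0.23 and 0.10. Pax3 and Pax7 mark progenitors, for which a mean of neuronal genes is not a matched reference. The mean log2 value of the progenitor genes was 12.41 to 12.53 in the floxed control, 12.48 to 12.60 in the Cre control and 12.71 to 12.79 in the cKO-labelled libraries. The factors were not expressed relative to that mean, which moved the other way. Lhx1 at 0.39 and 0.28 and Lhx5 at 0.41 and 0.40 were higher against both controls, and Barhl2 at 0.35 against the floxed control. Since 87.8% and 38.3% of all genes were higher on this scale, these calls do not set Lhx1, Lhx5 and Barhl2 apart. Between the control genotypes, 0.128% of all genes were lower and 47.8% higher in the Cre control relative to the same mean, and Pou4f1 (0.26) and Barhl2 (0.39) were among the higher.

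**Figure D5:**
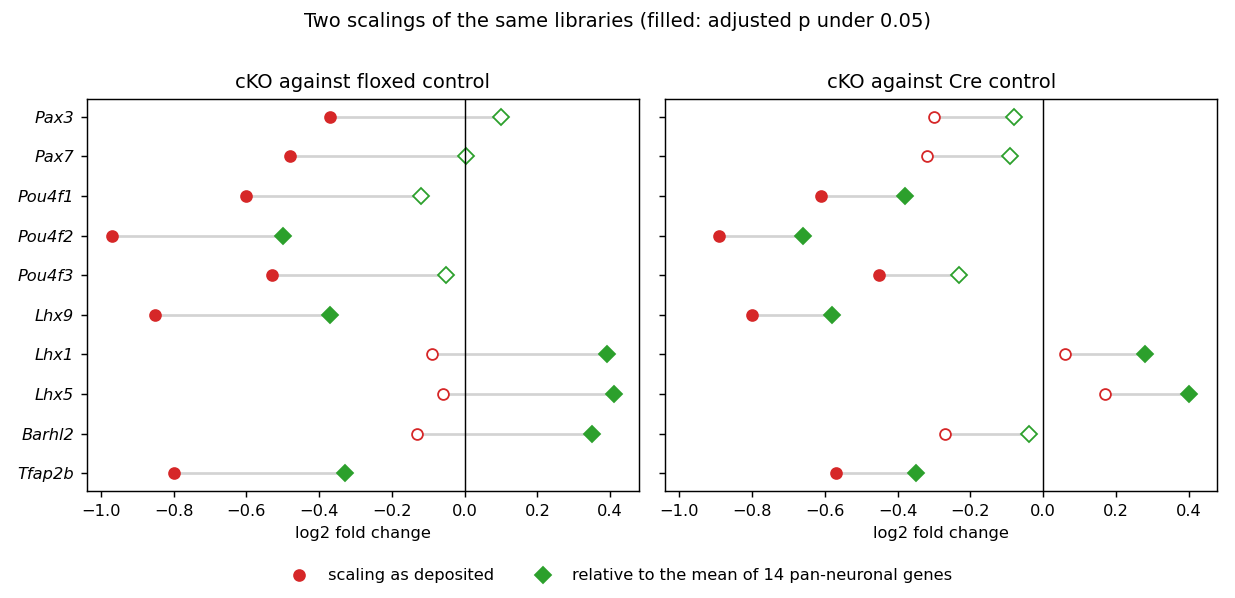
Log2 fold change (x axis) of each factor in the cKO-labelled libraries against each control, as deposited (red circles) and relative to the mean of the 14 pan-neuronal genes (green diamonds), filled where the adjusted p was under 0.05. Pou4f2, Lhx9 and Tfap2b keep filled symbols left of 0 on both scales, and the whole set moves to the right by about the shift of the median gene.

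Markers of other regions and cell types were summed on the linear scale to see what else the dissections held. Midbrain markers (Otx2, En1, En2 and Dmbx1) were present in all libraries at 334 to 387 cpm in the floxed control, 378 to 451 in the Cre control and 350 to 389 in the cKO-labelled libraries, and none of the 4 changed. Sensory ganglion markers, which bear on Pou4f1 and Tfap2b, were at 40.7 to 57.0, 34.9 to 39.6 and 34.3 to 37.1 cpm. Of their 7 genes, 4 were lower than in the floxed control and 0 than in the Cre control. Neural crest and Schwann lineage markers were at 21.0 to 23.9, 20.6 to 22.2 and 22.3 to 23.5 cpm, with Sox10 at 1.80 to 2.81. Of the 3 tested on this list, 1 was higher than in the floxed control and 0 changed against the Cre control. Retina markers, which bear on Pou4f2, were at 8.57 to 9.31 and 7.83 to 8.84 cpm in the controls and at most 8.32 cpm in the cKO-labelled libraries, with Rax and Crx below the filter. The 1 retina marker tested was lower than in the floxed control and did not change against the Cre control.

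The 6 forebrain markers above the filter, Lhx2 among them, summed to 156 to 171, 149 to 186 and 122 to 126 cpm, so every cKO-labelled library lay below all 6 controls. Of these 6, 1 fell against each control, and it was Lhx2. By itself Lhx2 was at 63.6 to 118 cpm over the 9 libraries, a large part of the sum. Thalamus and pretectum markers were at 282 to 312, 288 to 386 and 245 to 285 cpm, and 1 of 5 fell and 1 rose against each control. The 1 that fell was again Lhx2, which is on both lists. Cerebellum and hindbrain markers stood at 24.3 to 32.0, 20.2 to 25.1 and 20.6 to 22.6 cpm, with 4 of 7 lower than in the floxed control and 0 than in the Cre control. Meningeal and mesenchymal markers were at 563 to 1170, 778 to 1330 and 1270 to 1330 cpm, and 4 of 6 were higher than in the floxed control and 0 than in the Cre control. Erythroid markers were at 3150 to 5530, 3820 to 4460 and 5200 to 9570 cpm, and 4 of 5 were higher than in the floxed control and 2 than in the Cre control. Endothelial markers ranged over 154 to 202, 165 to 218 and 203 to 218 cpm, with 2 of 4 higher against the floxed control, and microglial markers over 47.4 to 55.9, 50.4 to 57.2 and 54.2 to 59.1 cpm, with 0 of 4 changed. The part of these lists in the fall of the dorsal factors was not tested.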

How the data were processed

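Midbrain RNA of 9 libraries, 3 per genotype, was analysed from 1 table that the authors deposited as log2 values, on a common scale across libraries and with low values shrunk, as read from the table. The transformation is not given in the sources used here. The submitters' processing notes name FastQC 0.10.1, kallisto 0.46.1, DESeq2 and mm10, with no role or order. Groups were taken from the sample titles.

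Named rows with at least 1 cpm on the linear scale in at least 3 libraries were kept, and 118 rows with a repeated name were dropped, which left 14029 genes. Rows without a name (5764) held 0.334% to 0.396% of the linear sum. Each genotype was given its own mean in 1 linear model of the 9 libraries, using limma 3.58.1 under R 4.3.3 with eBayes moderation along a trend in mean expression, with two-sided tests and Benjamini-Hochberg adjustment over all genes. The fit was tested on simulated data. Paralog differences were tested by exact permutation. Positions and shared 31-base words were taken from GENCODE vM21 (GRCm38) and promoter windows from RefSeq (GRCm38.p6). Figures were drawn with matplotlib 3.10.9.

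The 10 factors and Gpr161 were named throughout, with at most 4 genes of each list in each comparison, those of smallest adjusted p, and at most 2 of each marker list other than those below the filter and the 4 midbrain markers. For the forebrain markers, only those above the filter were summed, and 1 marker is not reported here. The factors, lists and tests were chosen with earlier results of these data known. Alternatives were other filters, no trend, only the 6 libraries compared, median centring, quantile normalization, a replicate block, other limits on p, and each library left out.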

Additional observations from a re-analysis of the deposited data

How the results depend on the processing

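The calls of Pou4f1, Pou4f2, Lhx9 and Tfap2b against both controls, and those of Pax7 and Pou4f3 against the floxed control, held under every alternative of the method and without any 1 library, wherever they were tested (Pou4f3 is not tested at 5 cpm), except relative to the pan-neuronal mean, an alternative chosen after seeing the data, where Pou4f1, Pax7 and Pou4f3 did not pass against the floxed control. The number of the 10 factors called ranged from 6 to 7 against the floxed control and 4 to 6 against the Cre control as each library was left out, and was 0 throughout for Cre minus floxed control. With an unadjusted p under 0.05 it was 9 for the cKO against the Cre control and 2 for Cre minus floxed control, and relative to the pan-neuronal mean it was 2 for the latter. Over all genes, 5380, 1363 and 8 were called, with 3606 to 4821, 237 to 3292 and 1 to 57 as each library was left out. Counts over all genes also moved with an adjusted p under 0.01 (2959, 136 and 1), an unadjusted p under 0.05 (6743, 4109 and 2451), only the 6 libraries compared (6209, 437 and 3) and no filter (5060, 873 and 5). The cause was not tested.

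The sample titles do not say that equal replicate numbers pair the libraries, and the main model did not pair them. Correlations of the deviations ran from -0.027 to 0.26 for the same number and from -0.28 to 0.16 for others. The range for the same number was thus higher at both ends. Of the 9 libraries, 4 correlated best with their own number in both other genotypes. Whether the numbers mark a pairing was not tested. With the number as a replicate block, 7, 6 and 0 factors and 5683, 1774 and 9 genes were called, Pax3 against the Cre control being the factor gained (adjusted p = 0.0111). The block left Pou4f1 minus Pou4f2 at 0.33 (exact permutation p = 0.0741), which is the smallest p it allows. That difference was 0.28 with the Cre control alone and 0.37 with the floxed control alone, and 0.28 to 0.37 as each library was left out (exact permutation p = 0.0714 without a cKO-labelled library, again the smallest allowed). Pax3 minus Pax7 ran from -0.14 to 0.16.

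Directions turned as follows, Pax3 and Pax7 against the floxed control having been called lower as deposited. For these progenitor factors, the pan-neuronal mean is not a matched reference. Relative to the pan-neuronal mean, against the floxed control, Pax3 was 0.10, Pax7 0.0028, Lhx1 0.39, Lhx5 0.41 and Barhl2 0.35, and for Cre minus floxed control Pax3 was 0.18, Pax7 0.10, Pou4f2 0.17, Pou4f3 0.18, Lhx9 0.20, Lhx1 0.11, Lhx5 0.02 and Tfap2b 0.02. With libraries centred on their medians, Pou4f1 was -0.0013 in that comparison. As each library was left out, Lhx1 against the Cre control ran from -0.05 to 0.16, and for Cre minus floxed control Pou4f1 ran from -0.09 to 0.10, Pou4f2 from -0.15 to 0.03, Pou4f3 from -0.14 to 0.02 and Lhx9 from -0.11 to 0.06. Depth is unknown, so no difference could be set against counting error, and groups of 3 libraries limit the precision throughout.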
